A study of Mus musculus with 23 samples.

Results

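Transcripts of 5 genes were followed in brown adipose tissue (BAT) of the mouse: Ucp1, its paralogs Ucp2 and Ucp3, and Elmod2 and Tbc1d9, the genes on either side of Ucp1. These were 5 of the 14651 genes in the table of normalized read counts. Ucp1, Ucp2 and Ucp3 were taken by name. Elmod2 and Tbc1d9 were chosen by their position and by their normalized counts, which had differed between the genotypes in these same libraries, so their differences between genotypes are given as values with no test. The response to cold was not used in the choice, though earlier results of it were known, and was tested for all 5.

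RNA came from 23 male mice of 8 to 12 weeks on a mostly C57BL/6 background, each a separate animal. Control mice (Mcu[fl/fl]) carried loxP sites around exon 2 of Mcu, the pore-forming subunit of the mitochondrial calcium uniporter, and BAT-Mcu-KO mice (Mcu[fl/fl];Ucp1-Cre, called KO mice from here on) carried the same sites together with 1 copy of a transgene that expresses Cre recombinase from the Ucp1 promoter. Of each genotype 6 mice stayed at room temperature (RT), and 5 control and 6 KO mice spent 6 h at 4°C, housed singly and without food. Every KO mouse and no control mouse had the transgene, so loss of Mcu and presence of the transgene cannot be told apart. The Mcu[fl/fl] line came from stem cells of mixed background and was then crossed with C57BL/6J, and the Cre line was B6.FVB. Whether the RT mice had food is not given in the sources used here. The counts do not separate the chromosomal copy of a sequence from any copy that a transgene carries.

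The labels were checked on Mcu, which had a normalized count of 70.8 to 136 in the control mice and 15.2 to 42.4 in the KO mice, with no overlap. All 11 genes listed as brown adipocyte markers were measured, with a summed normalized count of 135058 to 219419 per library. The list includes Pparg, Adipoq, Plin1 and Fabp4, which are not particular to brown fat, so the sum does not measure brown adipocytes alone. Fabp4 had the largest mean of the list in control mice at RT, 72466. Transcripts of skeletal muscle were very uneven: the 12 muscle markers summed to between 7.47 and 63169, and the sum passed 10000 in 8 libraries, of which 0 were control RT, 3 control 4°C, 3 KO RT and 2 KO 4°C. The depth was 7129271 to 21006347 reads in the 22 libraries whose reads were recovered. In whole tissue, fewer cells of a type and less RNA per cell cannot be told apart.

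UCP1 sits in the inner mitochondrial membrane of brown adipocytes and lets protons return to the matrix without passing ATP synthase, so that the energy of respiration is released as heat. Cold drives its transcription through sympathetic nerves, beta-adrenergic receptors and cAMP, acting on a distal enhancer and a proximal promoter. UCP2 and UCP3 are close relatives in the SLC25 family of mitochondrial carriers, UCP2 being found in many tissues and immune cells and UCP3 mainly in skeletal muscle and brown fat, and neither accounts for heat production as UCP1 does. ELMOD2 is a GTPase-activating protein for ARL2 and related small GTPases, found in part at mitochondria, and TBC1D9 belongs to the TBC domain family, whose members act on Rab GTPases of membrane traffic.

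In GRCm38 (GENCODE M21), Tbc1d9 (ENSMUSG00000031709.15, 83165352 to 83272934) and Ucp1 (ENSMUSG00000031710.4, 83290352 to 83298452) follow each other on the plus strand of chromosome 8, and Elmod2 (ENSMUSG00000035151.12, 83312632 to 83332486) comes next on the minus strand. The gap is 17417 bases between Tbc1d9 and Ucp1 and 14179 bases between Ucp1 and Elmod2. Ucp1 is therefore transcribed away from Tbc1d9 and towards Elmod2. The annotation holds no other measured gene between Tbc1d9 and Elmod2. Ucp3 (ENSMUSG00000032942.14, 100472990 to 100486432) and Ucp2 (ENSMUSG00000033685.13, 100493337 to 100502020) are neighbours of each other on the plus strand of chromosome 7, with 6904 bases between them. All 5 genes are annotated as protein coding. The 250 bases before the RefSeq start (GRCm38.p6) of the 3 genes of chromosome 8 are given here because these genes lie side by side and all moved with cold, and because the Ucp1 promoter also drives the Cre transgene. Each reads 5′ to 3′ on the strand of its gene, and capitals mark the motifs found.
Ucp1 promoter, chr8:83290098-83290347, plus strand: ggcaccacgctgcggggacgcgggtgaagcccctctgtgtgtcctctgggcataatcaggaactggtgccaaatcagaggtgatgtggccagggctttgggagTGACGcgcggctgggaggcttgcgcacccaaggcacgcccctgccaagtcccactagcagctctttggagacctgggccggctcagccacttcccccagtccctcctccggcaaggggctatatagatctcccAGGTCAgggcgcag
Elmod2 promoter, chr8:83332487-83332736, minus strand: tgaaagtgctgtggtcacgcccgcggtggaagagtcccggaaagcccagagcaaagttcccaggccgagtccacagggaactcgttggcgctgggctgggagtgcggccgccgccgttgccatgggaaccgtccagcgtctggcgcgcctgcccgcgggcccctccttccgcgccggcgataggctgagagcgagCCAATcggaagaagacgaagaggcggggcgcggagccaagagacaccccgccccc
Tbc1d9 promoter, chr8:83165102-83165351, plus strand: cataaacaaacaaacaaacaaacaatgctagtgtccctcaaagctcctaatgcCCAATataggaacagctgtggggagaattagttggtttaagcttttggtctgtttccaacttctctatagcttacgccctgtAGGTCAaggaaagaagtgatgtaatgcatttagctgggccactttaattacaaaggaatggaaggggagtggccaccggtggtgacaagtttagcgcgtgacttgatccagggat

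The windows were searched on both strands for TGACG (the cAMP response element half-site), AGGTCA (the nuclear receptor half-site), CCAAT (the box of that name) and TATAAA (the core promoter box bound by TBP), and no matches overlapped. Over the 32851 RefSeq windows of the same length, TGACG was present in 17.8%, AGGTCA in 14.0%, CCAAT in 33.8% and TATAAA in 12.4%. The Ucp1 window held TGACG, from 147 to 143 bases before the start, and AGGTCA, from 14 to 9 bases before it. The Elmod2 window held only CCAAT, 55 to 51 bases before its start, and the Tbc1d9 window held CCAAT at 197 to 193 and AGGTCA at 115 to 110. In the windows of the paralogs, Ucp2 had TGACG on the other strand at 62 to 58, and Ucp3 had AGGTCA at 149 to 144 and at 44 to 39. TATAAA was found in none of the 5 windows, and the distal enhancer of Ucp1 lies outside them. The GC content was 64.8% for Ucp1, 69.6% for Elmod2 and 44.0% for Tbc1d9, with 12, 28 and 4 CG dinucleotides.

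Ucp1 was among the most abundant transcripts of the tissue and rose with cold in both genotypes. In control mice at RT its normalized count ran from 53146 through a median of 64626 to 70028, with a mean of 63858 ± 6228 (SD, n = 6). The 5 control mice at 4°C had 179020, 147868, 160203, 140888 and 198043, a mean of 165205 ± 23378. Every cold mouse stood above every RT mouse, the means differed 2.59-fold, and the log2 fold change was 1.37 (limma SE 0.10 and adjusted p = 1.01e-10, Benjamini-Hochberg over all genes). KO mice had 50590 to 64889 at RT (median 55252, mean 56907 ± 5325) and 145145 to 169144 at 4°C (median 156459, mean 157765 ± 9239). These groups did not overlap either, and the difference was 2.77-fold, or 1.47 on the log2 scale (limma SE 0.10 and adjusted p = 1.32e-11).

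Such changes were frequent in the tissue. For cold, 46.0% of all genes passed the test in control mice (22.3% higher and 23.7% lower) and 43.3% in KO mice (21.4% higher and 21.9% lower), and in 13.0% and 12.4% every cold mouse was above every RT mouse. A log2 fold change as large as that of Ucp1 was less frequent, reached by 4.44% of genes in control and 3.18% in KO mice. Ucp1 took 0.506% of all normalized counts in control mice at RT and 1.24% at 4°C. Per kb of exon, it ranked 12 of 13781 genes with a known length at RT and 8 at 4°C in both genotypes.

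**Figure D1:**
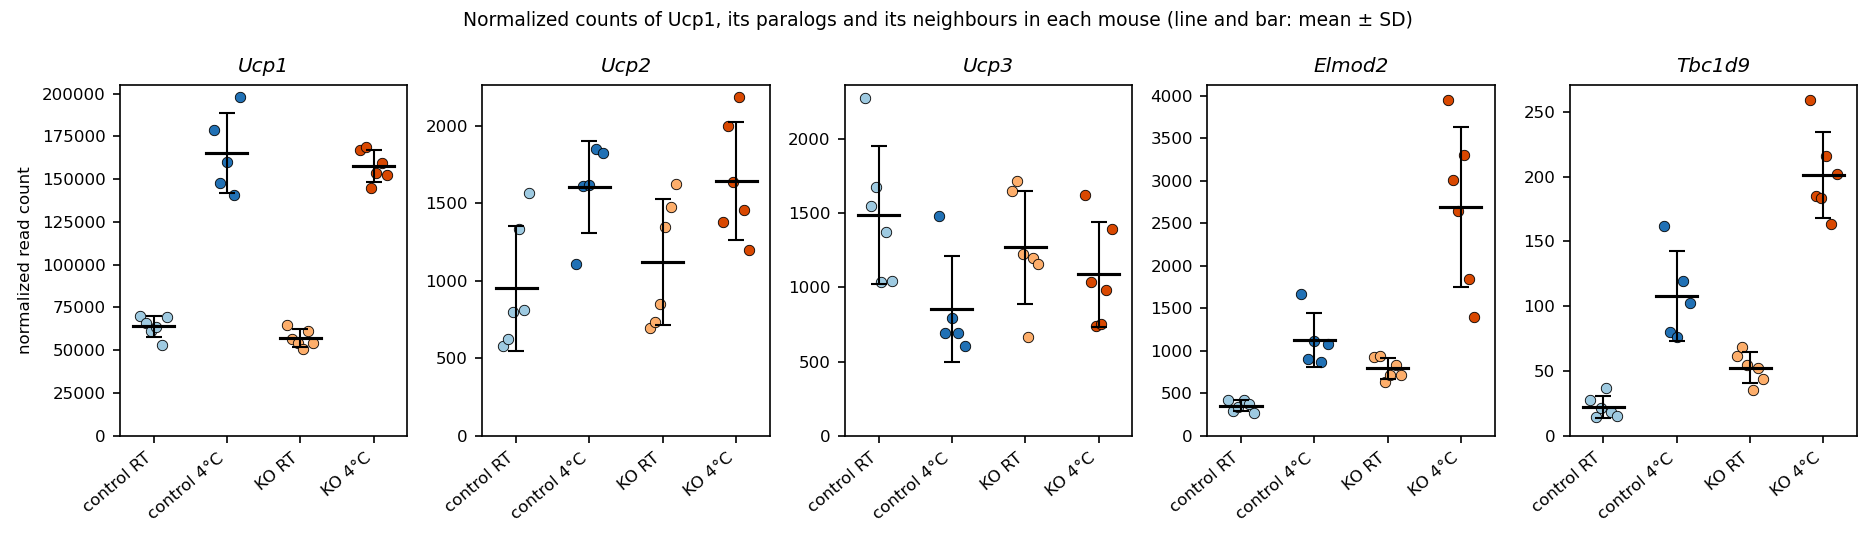
Normalized read count (y axes, linear from 0) of Ucp1, Ucp2, Ucp3, Elmod2 and Tbc1d9 in the 4 groups of 5 or 6 mice, with a point per mouse and the mean ± SD as lines. Ucp1 separates by temperature, Ucp2 and Ucp3 overlap between groups, and Elmod2 and Tbc1d9 step up with cold and again in the KO mice.

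Ucp1 itself did not pass the test between genotypes. At RT the KO mean was 89.1% of control, a log2 fold change of -0.17 with a 95% interval of -0.37 to 0.04 (adjusted p = 0.959, limma), and at 4°C it was 95.5%, or -0.06 with an interval of -0.27 to 0.16 (adjusted p = 0.948, limma). The order of the group means was KO RT, control RT, KO 4°C and control 4°C, and within each temperature the genotypes overlapped. Few genes passed at all, 0.0478% at RT and 0.0751% at 4°C. For the interaction, the difference between the cold responses of the genotypes, Ucp1 had 0.11 on the log2 scale with an interval of -0.19 to 0.40 (adjusted p = 0.935, limma). The interaction was passed by 0.0% of all genes (0 with limma and 0 with edgeR, 8 with DESeq2, and 878 at an unadjusted p under 0.05 with limma).

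Elmod2 also rose with cold in both genotypes, at a far lower level than Ucp1. The 6 control mice at RT had normalized counts of 265 to 421 (median 357, mean 351 ± 64.7), and the 5 at 4°C had 1665, 899.9, 1115, 863 and 1075 (mean 1124 ± 321). No RT mouse reached the lowest cold mouse. The difference was 3.20-fold, or 1.66 on the log2 scale (limma SE 0.21 and adjusted p = 4.07e-07). In KO mice the counts were 628 to 937 at RT (median 770.4, mean 791 ± 128) and 1401 to 3949 at 4°C (median 2824, mean 2690 ± 943). These groups also kept apart, 3.40-fold, with a log2 fold change of 1.70 (limma SE 0.20 and adjusted p = 1.38e-07). Log2 fold changes at least as large were found in 2.77% of all genes in control and 2.23% in KO mice.

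Tbc1d9 was the scarcest of the 5, with 15 to 394 reads per library, and had the largest cold log2 fold change among them in both genotypes. Control mice at RT had normalized counts of 14.5 to 37.0 (median 20.2, mean 22.4 ± 8.60), against 162, 80.4, 75.9, 119.7 and 103 at 4°C (mean 108 ± 34.8). All 5 cold mice exceeded all RT mice, 4.84-fold, with a log2 fold change of 2.24 (limma SE 0.23 and adjusted p = 1.40e-08). KO mice had 34.9 to 68.8 at RT (median 53.3, mean 52.5 ± 12.1) and 164 to 259 at 4°C (median 193, mean 201 ± 33.3). The difference was 3.84-fold, 1.94 on the log2 scale (limma SE 0.22 and adjusted p = 7.80e-08), and the groups did not overlap. Of all genes, 1.32% in control and 1.61% in KO mice had a log2 fold change of that size or more. The order of Tbc1d9 and Elmod2 was not tested, and their 95% intervals overlapped. These were 1.77 to 2.71 and 1.23 to 2.08 in control mice, and 1.49 to 2.39 and 1.29 to 2.10 in KO mice.

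Both neighbours were at a higher level in KO than in control mice at each temperature, the pattern for which they were chosen. At RT the lowest KO mouse had 628 Elmod2 counts and the highest control mouse 421, a ratio of means of 2.25 and a log2 difference of 1.17 (SE 0.20). At 4°C the ratio was 2.39 and the log2 difference 1.22 (SE 0.21), where the highest control mouse was exceeded by 5 of 6 KO mice. The remaining KO mouse, replicate 6, had 1401, under the 1665 of control replicate 1. For Tbc1d9 the ratio was 2.35 at RT (log2 difference 1.24, SE 0.22), where 5 of 6 KO mice exceeded the highest control mouse, and 1.86 at 4°C (0.93, SE 0.23), where all 6 were above by a narrow margin, 164 against 162. Over all genes, every KO mouse was above every control mouse in 0.102% at RT and 0.389% at 4°C, and no inference is drawn from this because the same contrast chose the genes. Without the 8 libraries richest in muscle transcripts, which leaves 2 control mice at 4°C, the log2 difference at 4°C was 0.68 for Elmod2 and 0.77 for Tbc1d9.

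In counts, the genotype difference was larger in the cold. The KO mean exceeded the control mean by 439.8 ± 58.5 Elmod2 counts (SE) at RT and by 1567 ± 411 at 4°C, 3.56 times as much, and by 30.1 ± 6.07 and 93.4 ± 20.7 Tbc1d9 counts, 3.10 times as much. On the log2 scale the interaction was 0.04 (SE 0.29) for Elmod2 and -0.31 (SE 0.32) for Tbc1d9, values built from the differences that chose the genes and not tested. Without the 8 muscle-rich libraries they were -0.70 and -0.69. The order of the group means was the same for both genes: control RT, KO RT, control 4°C and KO 4°C. For Elmod2 the middle groups overlapped, 3 of 5 cold control mice being above every KO mouse at RT, whereas for Tbc1d9 all 5 were.

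The neighbours were then set beside Ucp1 in the same mouse, a ratio that does not depend on the scaling of the library. In control mice Elmod2 amounted to 0.382% to 0.711% of the Ucp1 count at RT (mean 0.556%) and to 0.543% to 0.930% at 4°C (mean 0.678%), and in KO mice to 1.16% to 1.66% at RT (mean 1.39%) and 0.920% to 2.36% at 4°C (mean 1.70%). The groups overlapped between temperatures. The log2 ratio was higher at 4°C by 0.29 (SE 0.19) in control mice, p = 0.195 in a two-sided exact permutation test over mice and 0.260 adjusted over the 4 ratio tests, and by 0.22 (SE 0.23) in KO mice, exact p = 0.344 and adjusted 0.344.

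Tbc1d9 was higher relative to Ucp1 in the cold, by an amount that depended on the pseudocount. It amounted to a mean of 0.0352% of the Ucp1 count in control mice at RT (0.0215% to 0.0582%) and 0.0658% at 4°C (0.0474% to 0.0904%), and in KO mice to 0.0919% at RT (0.0691% to 0.122%) and 0.128% at 4°C (0.103% to 0.155%). The ratio rose 1.91-fold in control mice, 0.93 on the log2 scale (SE 0.29), with p = 0.0173 in the exact permutation test and 0.0346 adjusted over the 4 tests, and 2 of 5 cold mice above every RT mouse. In KO mice it rose 1.40-fold, 0.49 on the log2 scale (SE 0.15, exact permutation p = 0.0108, adjusted 0.0346), with 4 of 6 cold mice above every RT mouse. With a pseudocount of 10 on both genes the control change was 0.49 and its exact permutation p 0.0736, and in KO mice the change was 0.29 with exact permutation p 0.0498 (both 0.147 when adjusted over the 4 tests), so neither call was kept after adjustment.

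**Figure D2:**
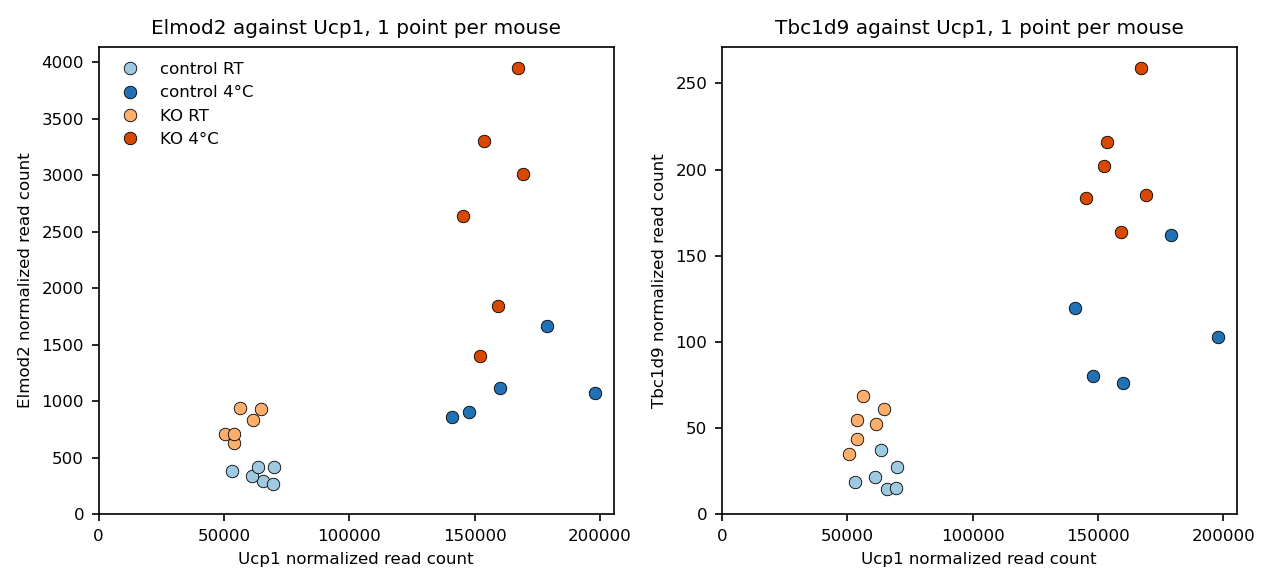
Normalized read count of Elmod2 (left) and Tbc1d9 (right) against that of Ucp1, with a point for each of the 23 mice and linear axes from 0. The cold mice lie to the right at 140888 Ucp1 counts or more, and at each temperature the KO mice lie above the control mice, apart from the overlaps given in the text.

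Within a group, mice with more Ucp1 were not reliably those with more Elmod2 or Tbc1d9. Over the 3 pairs of genes and the 3 groups of 6 mice, 9 relations were computed, and none had an adjusted p under 0.05 in exact permutation tests. The strongest was Elmod2 with Tbc1d9 in control mice at RT. Pearson's r was 0.862 (exact permutation p = 0.0306, adjusted 0.275) and Spearman's rho was 0.829 (exact permutation p = 0.0583, adjusted 0.315). In KO mice this pair had r = 0.626 at RT and 0.574 at 4°C. Without the 2 mice farthest from the median, its r was 0.666 in control RT, 0.929 in KO RT and 0.955 in KO 4°C mice. Ucp1 with Elmod2 had r from -0.257 to 0.711, and Ucp1 with Tbc1d9 from 0.0197 to 0.649. Without the 2 farthest mice these ran from -0.708 to 0.585 and from -0.594 to 0.943.

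Across all 23 mice, as a description, the gene most like Elmod2 among the other 14650 was Tbc1d9, with r = 0.951 over log2 values, and the gene most like Tbc1d9 was Elmod2. These points share the temperature and genotype of their groups and the contrast that chose both genes. After Tbc1d9, the genes nearest to Elmod2 were Inpp1, Rab3gap1, Klf15 and Abcg1 (r = 0.920 to 0.884), and after Elmod2 those nearest to Tbc1d9 were Acer2, Pla2g2d, Lox and Inpp1 (0.918 to 0.912). Ucp1 ranked 573 for Elmod2 (r = 0.742) and 427 for Tbc1d9 (r = 0.812). The genes most like Ucp1 were Scarb2, Tnfrsf1a, Ppif, 2310039L15Rik and G3bp2, with r from 0.984 to 0.981.

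Taking the deviations from the group means, which removes temperature and genotype, Elmod2 ranked 77 for Tbc1d9 and Tbc1d9 ranked 188 for Elmod2 (r = 0.571). The genes nearest to Tbc1d9 were then Trim66, Zmiz1, Utp14a, Slc40a1 and Nfrkb (0.745 to 0.682), and those nearest to Ucp1 were Gabpb1, Me3, Mgl2, Txn2 and Top1mt (0.761 to 0.738).

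Within 1 Mb of Ucp1, 31 other genes were measured. For cold in control mice 6 passed the test as higher and 6 as lower, beside 22.3% and 23.7% of all genes, with a median log2 fold change of -0.12 beside -0.02 for all genes, and in KO mice 6 and 5, beside 21.4% and 21.9% of all genes, with a median of -0.17. These counts are read as no result about the region. Of these 31, 1 reached the cold log2 fold change of Ucp1 in each genotype, the co-chaperone gene Dnajb1 (1.55 and 1.58), named after its value was seen. Ptger1, also named after its value was seen, stood just under Ucp1 in control mice, at 1.36 (SE 0.17) beside 1.37. In KO mice Ptger1 had 1.22. Il15, a cytokine gene 887 kb before the Ucp1 start, fell from a mean of 89.4 to 14.5 in control mice, a log2 fold change of -2.62 (limma SE 0.28 and adjusted p = 3.42e-08), and from 96.9 to 27.3 in KO mice (-1.91, adjusted p = 2.42e-06, limma).

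The nearest measured genes outside the Tbc1d9 to Elmod2 interval were Rnf150, 427 kb before the Ucp1 start, and Scoc, 168 kb after it. Neither passed the test for cold in control mice, with log2 fold changes of 0.40 (adjusted p = 0.678, limma) and 0.18 (adjusted p = 0.435, limma), and for Rnf150 the mean count went the other way, from 79.0 to 68.2. Beyond them lay Zfp330 at 516 kb before (-0.12, adjusted p = 0.598, limma), and Ndufb7, a subunit of respiratory complex I, at 276 kb and Tecr, an enzyme of fatty acid elongation, at 318 kb after. Ndufb7 fell by 0.34 (adjusted p = 0.0135, limma) and Tecr fell by 0.54 (adjusted p = 0.00253, limma) on the log2 scale.

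Between genotypes, 0 of the 31 other genes passed at either temperature by limma, beside 0.0478% of all genes at RT and 0.0751% at 4°C. Their smallest adjusted p-values were 0.940 at RT and 0.528 at 4°C (limma). An unadjusted p under 0.05 was found for 2 of them at RT and 3 at 4°C, beside 754 and 1023 of all 14651 genes. With so few genes passing anywhere, these counts are read as no result about the region. The median log2 difference of the 31 genes was -0.11 at RT and -0.03 at 4°C. The highest values were 0.93 for Rnf150 at RT (adjusted p = 0.983, limma) and 1.51 for 4930432K21Rik at 4°C (adjusted p = 0.597, limma), a gene with group means of 1.57 to 15.5 counts.

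**Figure D3:**
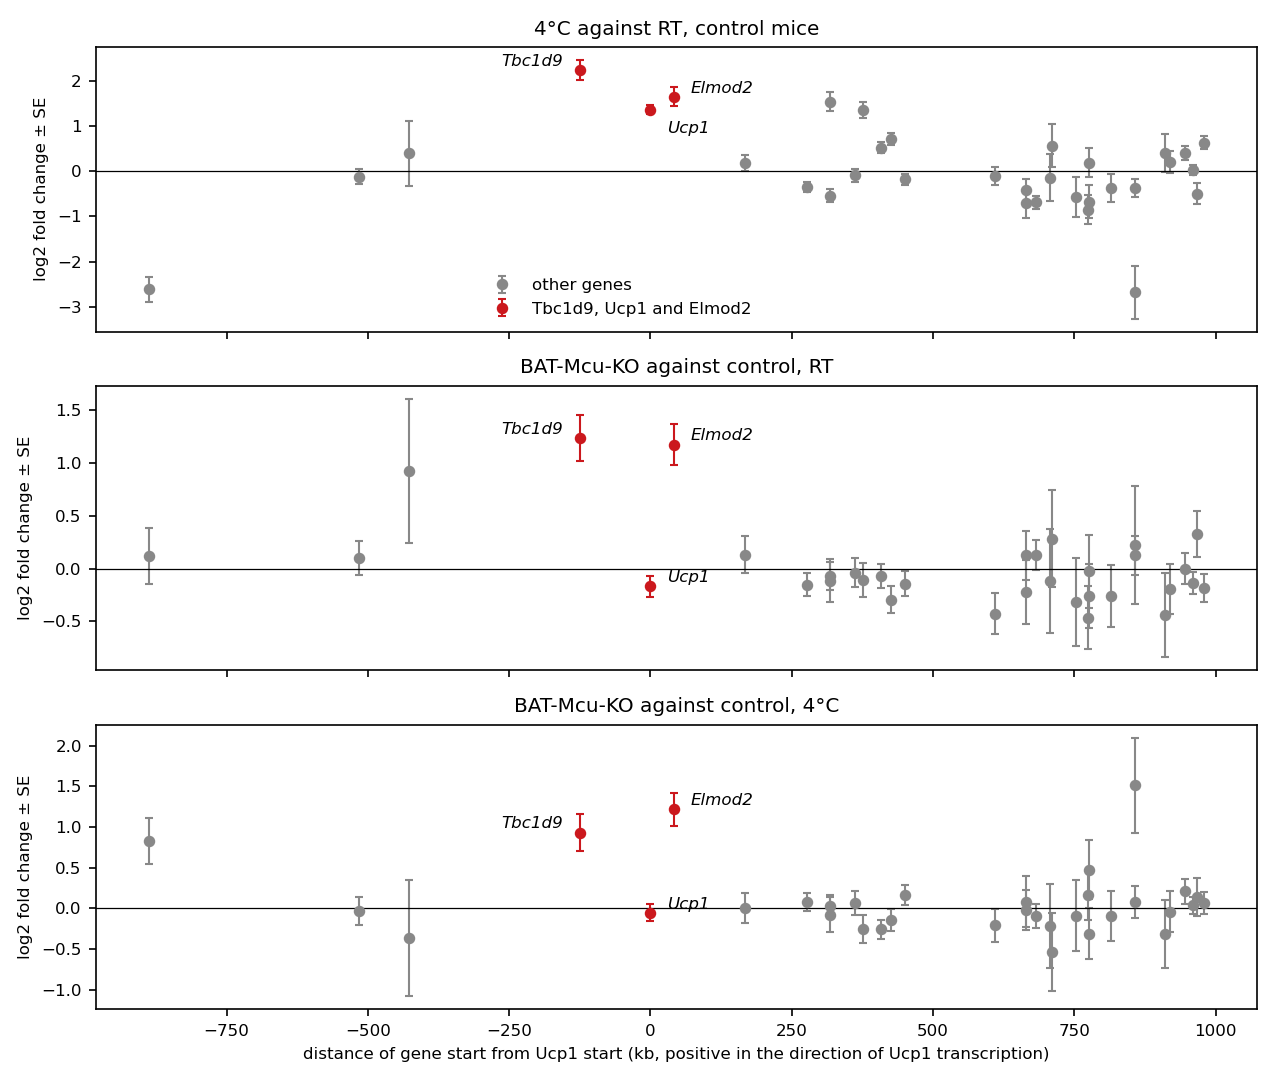
Log2 fold change ± SE (y axes, limma) of the measured genes within 1 Mb of Ucp1 against the distance of their start from the Ucp1 start in kb (x axis), for 4°C against RT in control mice and for KO against control at RT and at 4°C. Tbc1d9, Ucp1 and Elmod2 (red) are all up with cold, while between genotypes Tbc1d9 and Elmod2 lie at 0.93 to 1.24 and Ucp1 lies near 0.

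With cold, Ucp2 rose in both genotypes and Ucp3 fell in control mice, each by less on the log2 scale than Ucp1 rose. Ucp2 had normalized counts of 580 to 1566 in control mice at RT (median 806, mean 953 ± 403, n = 6) and 1108, 1615, 1622, 1852 and 1827 at 4°C (mean 1605 ± 299). The groups overlapped, with 4 of 5 cold mice above every RT mouse, and Ucp2 rose by 0.83 on the log2 scale (limma SE 0.25 and adjusted p = 0.00777). In KO mice it went from 695 to 1624 at RT (median 1096, mean 1120 ± 409) and from 1197 to 2186 at 4°C (median 1549, mean 1644 ± 380.1), with only 3 of 6 cold mice above every RT mouse. The log2 fold change was 0.60 (limma SE 0.24 and adjusted p = 0.0405), a call that was lost when any of 6 mice was left out in turn (KO RT replicates 1, 2 and 3 and 4°C replicates 2, 3 and 4, with adjusted p-values up to 0.109, limma).

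Ucp3 had normalized counts of 1037 to 2279 in control mice at RT (median 1459, mean 1491 ± 465) and 1483, 694, 797, 689.8 and 601 at 4°C (mean 853 ± 359). It fell by 0.83 on the log2 scale (limma SE 0.25 and adjusted p = 0.00877), and 4 of 5 cold mice lay below every RT mouse, the exception being replicate 1. In KO mice the ranges were 667 to 1719 at RT (mean 1270 ± 382) and 741 to 1624 at 4°C (mean 1088 ± 355), the log2 fold change was -0.22 with a 95% interval of -0.72 to 0.27, and the test was not passed (adjusted p = 0.491, limma). The difference between the genotypes in this response was 0.61 (limma SE 0.35 and adjusted p = 0.850), so the responses of the genotypes were not shown to differ.

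Skeletal muscle also expresses Ucp3 and macrophages express Ucp2, so both were set beside the markers of those cells, whose part in the changes was not tested. Ucp3 ran from 601 to 1624 (median 865) in the 8 libraries with over 10000 muscle marker counts and from 741 to 2279 (median 1371) in the other 15. These sets mix the groups unevenly. The 8 held 3 control mice at 4°C and 0 at RT, so muscle content and cold cannot be told apart here. Within groups of 6 mice, Ucp3 and the summed muscle markers had r of 0.696, -0.326 and -0.176 in control RT, KO RT and KO 4°C, and Ucp2 and the summed macrophage markers -0.287, 0.698 and -0.741. No such relation passed in exact permutation tests (smallest p = 0.0556, and 0.287 adjusted over the 12 computed). The macrophage markers, 10 of 11 measured and none of these at 0 in any library, summed to 801 to 1114, 874 to 1386, 631 to 1153 and 1131 to 1566 in control RT, control 4°C, KO RT and KO 4°C. Without the 8 muscle-rich libraries the control change was 0.59 for Ucp2 (adjusted p = 0.193, limma) and -0.40 for Ucp3 (adjusted p = 0.306, limma), so neither call was kept in the 2 cold control mice that remained. In KO mice the change was then 0.80 for Ucp2 (adjusted p = 0.0650, limma) and -0.69 for Ucp3 (adjusted p = 0.0604, limma), neither passing. The fall of Ucp3 was thus larger in KO than in control mice in this setting, the reverse of the order with all libraries.

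Neither paralog passed the test between genotypes. For Ucp2 the log2 difference was 0.25 (95% interval -0.24 to 0.74, adjusted p = 0.993, limma) at RT and 0.03 (-0.48 to 0.54, adjusted p = 0.996) at 4°C. For Ucp3 it was -0.24 (-0.74 to 0.26, adjusted p = 0.993, limma) at RT and 0.37 (-0.15 to 0.89, adjusted p = 0.814) at 4°C.

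Ucp2 and Ucp3 were also compared within groups, as a description with no test, because the pair was picked after the values were seen. Pearson's r over the 6 mice of a group was -0.906 in control mice at RT (-0.705 without the 2 mice farthest from the median of Ucp2), -0.666 in KO mice at RT and -0.703 in KO mice at 4°C, and Spearman's rho was -0.886, -0.771 and -0.657.

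**Figure D4:**
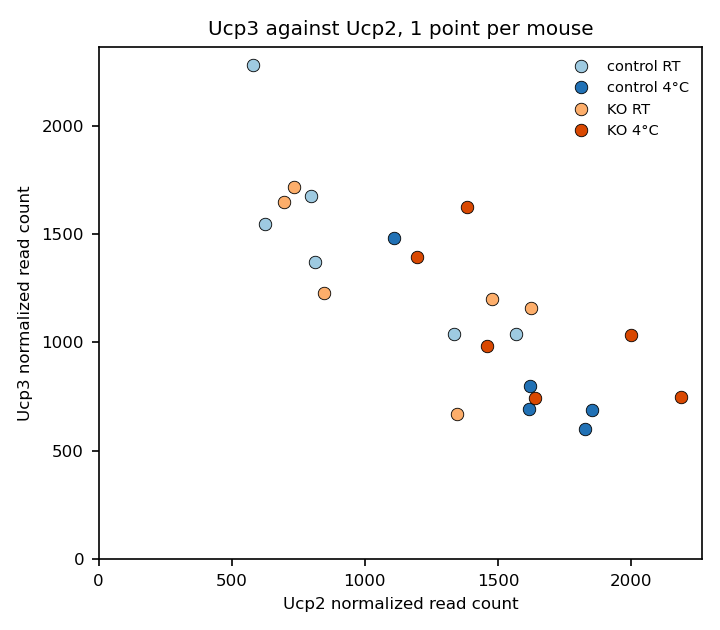
Normalized read count of Ucp3 (y axis) against Ucp2 (x axis) with a point per mouse, coloured by group. Mice low in Ucp2 are high in Ucp3 within the control RT group (r = -0.906), and control replicate 1 at 4°C, with 1483 Ucp3 counts, lies apart from the other 4 of its group.

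Per kb of exon, Ucp1 exceeded both paralogs by a wide margin. Its mean level was 82.1 times that of Ucp3 and 286 times that of Ucp2 in control mice at RT, and 371 and 440 times at 4°C. In KO mice the ratios were 85.9 and 217 at RT and 278 and 410.1 at 4°C. In this measure Ucp3 stood above Ucp2 in every group, with mean levels of 476 and 136 per kb in control mice at RT and 272 and 230 at 4°C, but per kb of the longest transcript the order turned in control mice at 4°C, with 348 for Ucp3 and 402 for Ucp2. Ucp1 exceeded Elmod2 1238-fold and Tbc1d9 10279-fold per kb in control mice at RT. With the length of the longest transcript in place of all exons, the ratio to Ucp2 was 163 and that to Elmod2 569.

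Some of these genes overlap others in the annotation when whole gene spans are compared, and reads were counted without regard to strand. Reads in a shared stretch may not be assignable, and their number was not examined. Ucp2 overlaps Dnajb13 and Ucp3 overlaps the antisense gene Gm10603, both on the minus strand. Tbc1d9, the scarcest of the 5, overlaps Gm10645 on the minus strand and the pseudogene Gm17999 on the plus strand, which are not among the genes analysed here. Dnajb13 had group means of 6.49 to 15.9 counts and Gm10603 of 109 to 187. With cold in control mice Dnajb13 rose by 1.06 (adjusted p = 0.0300, limma) and Gm10603 by 0.62 (adjusted p = 0.00811, limma) on the log2 scale, so Gm10603 moved against Ucp3. Further out, Coa4, an assembly factor of cytochrome c oxidase, rose by 0.69 (adjusted p = 0.00267, limma), and Gm37716 had 0.47 (adjusted p = 0.447, limma). Of the 17 other genes measured within 0.5 Mb of Ucp2, 5 passed as higher and 3 as lower with cold in control mice and 5 and 1 in KO mice, beside 46.0% and 43.3% of all genes called in either direction. Between genotypes 0 of the 17 passed by limma, beside 0.0478% of all genes at RT and 0.0751% at 4°C (0 with an unadjusted p under 0.05 at either temperature).

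The more distant UCP relatives were scarce. Slc25a14 (UCP5) had group means of 24.0 to 32.6 counts and Slc25a27 (UCP4) of 14.0 to 21.9, with cold log2 fold changes of -0.49 (adjusted p = 0.122, limma) and -0.29 (adjusted p = 0.542, limma) in control mice. Slc25a30 (KMCP1) rose with cold, from a mean of 68.7 to 146 in control mice (log2 fold change 1.03, limma SE 0.21 and adjusted p = 2.57e-04) and from 86.9 to 148 in KO mice (0.74, adjusted p = 0.00405, limma). These 3 genes thus had 1 member called with cold in each genotype, beside 46.0% and 43.3% of all genes. Between genotypes 0 were called with limma, beside 0.0478% of all genes at RT and 0.0751% at 4°C.

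Listed genes that regulate Ucp1 were called by cold more often than not. The list was chosen with earlier results known and was not matched to all genes by count level. Its shares are therefore a description, and the part of count level in them was not tested. Of 45 listed transcription factors and coregulators 44 were measured, and in control mice 17 rose and 11 fell with cold, 63.6% called beside 46.0% of all genes. In KO mice 18 rose and 13 fell, 70.5% beside 43.3%. The median log2 fold change was 0.14 in control and 0.16 in KO mice, beside -0.02 and -0.02 for all genes. Between genotypes 0 of 44 passed by limma at either temperature, beside 0.0478% of all genes at RT and 0.0751% at 4°C.

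The largest changes were in coactivators and orphan receptors of the cAMP response. Ppargc1a, the coactivator PGC-1alpha, had a mean of 573 counts at RT and 19302 at 4°C in control mice (log2 fold change 5.10, limma SE 0.23 and adjusted p = 1.95e-14). The nuclear receptors Nr4a3 and Nr4a1 rose by 4.73 (SE 0.51) and 4.26 (SE 0.41) on the log2 scale. Among factors known to bind at Ucp1, Irf4, a partner of PGC-1alpha, rose by 1.80 (SE 0.47) in control and 2.75 (SE 0.45) in KO mice, Crem by 1.65 and 1.79, Atf2 by 0.93 and 0.75, and Pparg by 0.51 and 0.44.

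Other direct regulators fell while Ucp1 rose. Cebpa fell by 2.64 on the log2 scale in control mice, from a mean of 942 to 152 counts (limma SE 0.20 and adjusted p = 1.09e-10), whereas Cebpb rose by 0.95 from a low level (54.0 to 110.0). Thra, a thyroid hormone receptor, fell by 0.91, Esrrg fell by 1.08, Ebf2 fell by 0.96, Prdm16 fell by 0.71 and Ppara fell by 0.58, and these 5 also fell in KO mice. Their relatives in the list did not all follow. In control mice Esrrb rose by 3.09 from a low level (4.74 to 42.2), Ebf1 by 0.88 and Cebpd by 1.54. Thrb fell by 0.36, and Esrra had 0.25 and did not pass (adjusted p = 0.169, limma). Creb1, which binds the cAMP response element, had 0.21 and did not pass (adjusted p = 0.128, limma).

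**Figure D5:**
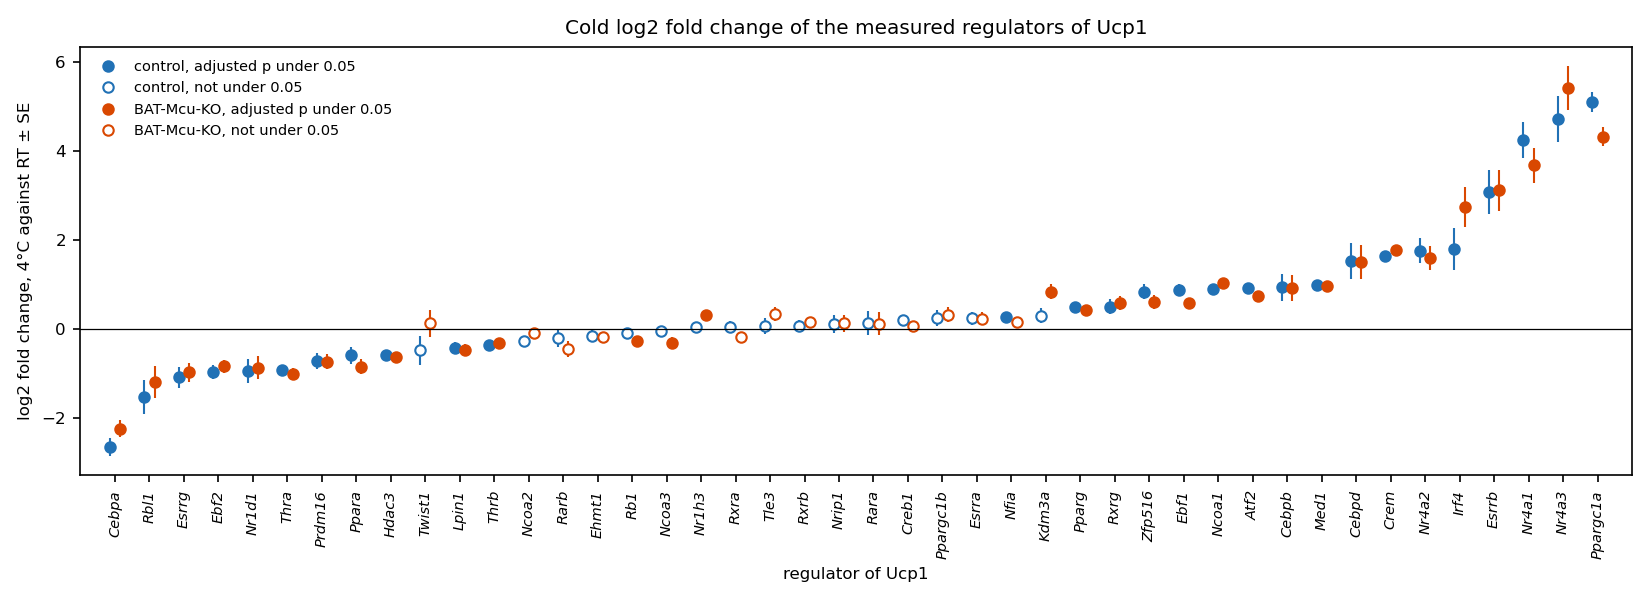
Log2 fold change of 4°C against RT ± SE (y axis, limma) for the 44 measured regulators of Ucp1 (x axis, ordered by the control value), in control (blue) and KO (orange) mice, with filled points where the adjusted p was under 0.05. The values run from -2.64 for Cebpa to 5.10 for Ppargc1a in control mice, and those of the genotypes lie close together for most genes.

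Of 14 listed genes of the ELMO domain, ARL and TBC families 13 were measured, and with cold in control mice 1 rose and 3 fell, 30.8% called beside 46.0% of all genes, with a median log2 fold change of -0.28 beside -0.02. In KO mice 1 rose and 4 fell, 38.5% called beside 43.3%, with a median of -0.22 beside -0.02. Elmod3, a paralog of Elmod2, fell by 1.63 in control mice, from 845 to 275 counts (limma SE 0.12 and adjusted p = 9.22e-11). Arl2, the GTPase on which ELMOD2 acts, fell by 0.46 (SE 0.10), and Elmo1, an adaptor of Rac activation, rose by 0.82 (SE 0.16). Between genotypes 0 of the 13 passed by limma, with a smallest adjusted p of 0.940 at RT and 0.585 at 4°C, beside 0.0478% and 0.0751% of all genes passing.

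Counts of called markers stand beside 46.0% of all genes called with cold in control and 43.3% in KO mice. Of 6 endothelial markers 3 rose and 1 fell in control mice, and their sum was 3121 to 4493 at RT and 5809 to 10038 at 4°C, without overlap, and 3347 to 4583 and 5419 to 9341 in KO mice. Their part in the change of the neighbours was not tested, and within groups Elmod2 and the endothelial sum had r from 0.0199 to 0.811, none passing (smallest exact permutation p = 0.0736, adjusted 0.287). Of the 11 genes listed as brown adipocyte markers, general adipocyte genes among them, 3 rose and 5 fell in control mice, and 2 rose and 2 fell in KO mice. Of 10 macrophage markers 1 rose in control and 4 rose in KO mice by limma, and no other was called. White adipocyte markers, 4 of 6 measured, had 1 higher and 2 lower in each genotype, among them Lep (named after its value was seen), the leptin gene, at 209 counts at RT and 1.29 at 4°C in control mice. Of the lymphocyte markers 1 of 10 was measured, and 1 was called, lower with cold in KO mice. For skeletal muscle, nerve and erythroid markers 0 were called by limma in any comparison.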

How the data were processed

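RNA-seq libraries were made from BAT of 23 mice by the Smart-seq2 method. Per the labels and the study's methods, the authors aligned reads to mm10 with STAR (version 2.4.0j), counted uniquely mapped exonic reads with HTSeq irrespective of strand, dropped genes that did not reach 8 reads in 6 or more samples and divided by DESeq2 size factors. The signal they deposited is this normalized count. A second deposited table, of fold changes and p-values from the authors' own comparisons, was not used. The number of unused sample columns was 0.

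Tests were made with limma (version 3.58.1, under R 4.3.3), taking log2 of the normalized count plus a pseudocount of 1, with 4 group means, a variance trend and Benjamini-Hochberg adjustment over 14651 genes, called at an adjusted p under 0.05. Fold changes on this scale are slightly understated for low counts. Whole reads were recovered in 22 libraries (100.0% of values whole within 0.1), and Ctrl RT replicate 6 was left out of the edgeR (version 4.0.16) and DESeq2 (version 1.42.0) alternatives. Its values were also 100.0% whole, but the value of 1 read inferred there, 0.993, was too close to 1 to be accepted. PCR copies are not independent molecules, so read numbers understate the counting error. Ratios and correlations were tested by two-sided exact permutation with scipy (version 1.17.1). The limma code was tested on simulated data. Positions are from GENCODE M21 (94.1% of genes matched by symbol) and promoters from RefSeq on GRCm38.p6, matched for all 5 genes.

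The members, lists and tests were chosen with earlier results of these data known. Named were the 5 genes, the 3 nearest measured genes on each side of Ucp1 within 1 Mb and the 2 nearest on each side of the Ucp2 and Ucp3 pair within 0.5 Mb, the 3 largest called changes of each list, regulators known to act at Ucp1, all UCP relatives and the 5 genes most alike. The genes most like Elmod2 by deviations from the group means are not reported here.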

Additional observations from a re-analysis of the deposited data

Results flagged for a closer look

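Among 28 checks of the 5 genes and the summed markers for a sample far from the rest of its group, of which chance flags about 1 in 20, 1 result stood out. Ucp3 had a normalized count of 1483 in control replicate 1 at 4°C, and the other 4 mice of that group had 601 to 797. This library had a muscle marker sum of 26.3, below those of all but 2 of the other libraries, and the highest Elmod2 (1665) and Tbc1d9 (162) counts of its group. Without it the cold log2 fold change of Ucp3 in control mice was -1.05 (adjusted p = 0.00100, limma).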

How the results depend on the processing

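The cold calls of Ucp1, Elmod2 and Tbc1d9 were kept in both genotypes under each alternative that was run. The number of genes called between genotypes was small and unstable, 7 at RT and 11 at 4°C. It was 4 and 5 without the 8 muscle-rich libraries (an alternative chosen after seeing the data), 3 and 2 when each fit held just the groups compared, 4 and 7 with edgeR, 13 and 24 with DESeq2, and 7 at 4°C without the variance trend. DESeq2 called 8 genes for the interaction. Leaving out a mouse in turn gave 5 to 8 at RT, 3 to 16 at 4°C (3 without control 4°C replicate 2, 6 without BAT-Mcu-KO 4°C replicate 4, 7 without control 4°C replicate 5) and 0 to 1 for the interaction (1 without control 4°C replicate 1).

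The cold change of Ucp2 in BAT-Mcu-KO mice did not pass the test in these alternatives: 0.55 with 75th percentile scaling, 0.60 without the variance trend, 0.80 without the muscle-rich libraries and, in 6 of 23 cases, without a mouse (range 0.48 to 0.73). Without the muscle-rich libraries Ucp2 and Ucp3 in control mice gave 0.59 and -0.40, and values that changed sign were the genotype difference of Ucp3 (0.068 at RT, -0.22 at 4°C) and the interactions of Ucp1 (-0.088), Ucp2 (0.20), Ucp3 (-0.29) and Elmod2 (-0.70). The genotype difference at 4°C ran from -0.11 to 0.011 for Ucp1 and from -0.10 to 0.11 for Ucp2 without a mouse. The ratio of Tbc1d9 to Ucp1 in control mice changed by 0.49 with a pseudocount of 10, and in BAT-Mcu-KO mice by 0.29, neither passing when adjusted over the 4 ratio tests. With ranks, Ucp1 in control mice at RT had rho = 0.0286 with Elmod2 and -0.0286 with Tbc1d9, and without the 2 farthest mice r = -0.594 with Tbc1d9. The cause of these changes was not tested. With 75th percentile scaling the median of all genes for cold in control mice was -0.13 and 38.2% of calls were higher, against 48.5%.

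Replicate numbers are shared between groups but did not pair the mice: mean correlations of same-numbered mice were -0.137 to 0.121, and at most 2 per pair of groups correlated best with their own number. With a replicate block 7 genes were called by genotype at 4°C, the Ucp2 difference there was -0.041, and the Tbc1d9 ratio changed by 0.81 in control mice and by 0.49 in the others (exact permutation p = 0.0625 each). In control mice the ratio rose in all 5 same-numbered pairs. With 5 pairs that test can give no smaller p, so it could not have passed. TMM scaling of recovered reads was not run, and TMM of the normalized counts was used.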
